A study of Mus musculus with 4 samples.

Results

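DNA replication and mitosis genes are described here as 40 named genes, listed by symbol for their roles, out of 13104 genes with an FPKM value in the deposited RNA-seq data. All 40 were found, each as 1 row of RefSeq transcripts. They comprise 10 genes of replication licensing, 6 of nucleotide supply and the replication fork, 4 of the mitotic cyclins and CDK1, 4 of the mitotic kinases and their passenger complex, 6 of the spindle checkpoint and anaphase-promoting complex, 8 of the spindle and kinetochore, and the proliferation marker Mki67 with the regulator E2f1. RNA came from 4 stable lines of 3T3-L1, a mouse preadipocyte line, with 1 sample per line. FLAG cells carried the empty FLAG vector and FLAG-CACUL1 cells expressed FLAG-tagged CACUL1, and both lines were selected with G418. The sh-CACUL1 line carried a hairpin vector directed against Cacul1, the sh-Luc line a vector directed against luciferase, and Hygromycin B was used to select both. Whether each line was a single colony or a pool of colonies is not given in the sources used here. Confluent cells of every line received an initiation medium with rosiglitazone (5 μM), IBMX (0.5 mM), dexamethasone (1 μg/ml) and insulin (5 μg/ml). Medium with insulin (5 μg/ml) followed, and the cells were harvested on differentiation day 8.

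Cells copy their DNA in S phase and separate it in mitosis, and the genes for these steps are switched on in waves. E2F factors drive the genes of licensing and DNA synthesis, and the MuvB complex together with B-MYB and FOXM1 drives the genes of G2 and mitosis. In resting cells the same promoters are held down by the DREAM complex of MuvB with E2F4 and a pocket protein. Confluent 3T3-L1 preadipocytes re-enter the cell cycle for a few divisions after the hormone mixture is added, a step known as mitotic clonal expansion, and leave it as they become adipocytes. Day 8 is usually past this step.

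The promoters of these genes are shown before their levels because they carry the letters by which such genes are recognised. RefSeq promoters on GRCm38.p6, from 250 bases before to 50 bases after the start site, were at hand for 34 of the 40 genes, and Aurkb, Ccna2, Gmnn, Kif20a, Mcm4 and Tpx2 were not matched. Letters were searched on both strands. TTTGAA or TTCGAA was counted as a CHR, the element bound by MuvB, and CCAAT as the box bound by NF-Y. TTTGGCGC, TTTCCCGC, TTTGCCGC or TTTCGCGC was counted as an E2F match, and matches on opposite strands may overlap. A CHR was present in 18 of the 34 promoters (52.9%), against 16.9% of 10392 genes of the FPKM files with a promoter and 21.7% of all 27025 genes with a promoter. A CCAAT box was present in 26 (76.5%), against 43.7% and 41.1%, respectively. All 18 promoters with a CHR also held a CCAAT box (52.9%), a pairing found in 7.43% of the genes of the FPKM files and 8.61% of all promoters. An E2F match was present in 7 promoters (20.6%), against 4.78% and 2.60%. The other replication, mitosis and E2F pathway genes with a promoter (82 genes) were close to the members in CHR (50%) and E2F matches (25.6%). They less often held a CCAAT box (59.8%) or a CHR together with a CCAAT box (37.8%).

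The letters differed between the roles but did not divide them cleanly. Of 8 licensing promoters, 6 held an E2F match and 3 a CHR (37.5%, against 16.9% of the genes of the FPKM files). Of 6 promoters of nucleotide supply and the fork, 1 held a CHR and none an E2F match. Cdk1 was the only other member with an E2F match. Among 6 promoters of the checkpoint and anaphase-promoting complex, 5 held a CHR and none an E2F match, and among 6 spindle and kinetochore promoters, 4 held a CHR and none an E2F match. None of these letters stood in the windows of Tyms, Tk1, Birc5, Mad2l1, Nusap1 and E2f1. The windows of E2f1, Cdc6 and Aurka lie wholly inside the annotated gene, so sequence before the outermost start of these genes was not searched. A match is a description of the sequence and does not show that a factor was bound.

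**Figure D1:**
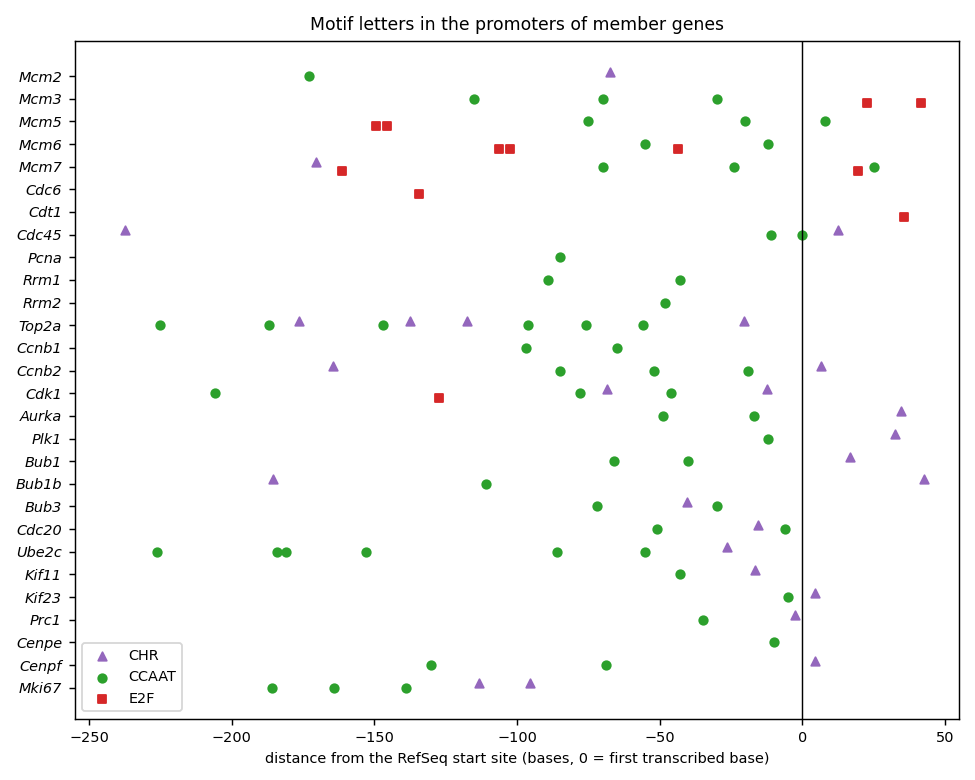
Positions of CHR (triangles), CCAAT (circles) and E2F (squares) letters in the promoters of the 28 members that held any, with the distance in bases from the RefSeq start site on the horizontal axis and, for 3 genes with 2 starts, the first listed start. E2F matches lie in the rows of the licensing genes at the top and of Cdk1, and CHR triangles are frequent in the mitotic rows further down.

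The 6 promoters below belong to the members with the widest range of log2(FPKM + 1) over the 4 samples among those with an E2F match or with both a CHR and a CCAAT box. They lie on GRCm38.p6 at chr8:75109259-75109558 (plus strand, Mcm5), chr4:118437294-118437593 (minus, Cdc20), chr11:99024140-99024439 (minus, Top2a), chr1:128359656-128359955 (minus, Mcm6), chr2:164769679-164769978 (plus, Ube2c) and chr8:122567765-122568064 (plus, Cdt1). Capitals mark the matched letters, read on either strand, so that a CCAAT box on the other strand appears as ATTGG and a CHR as TTCAAA.
Mcm5: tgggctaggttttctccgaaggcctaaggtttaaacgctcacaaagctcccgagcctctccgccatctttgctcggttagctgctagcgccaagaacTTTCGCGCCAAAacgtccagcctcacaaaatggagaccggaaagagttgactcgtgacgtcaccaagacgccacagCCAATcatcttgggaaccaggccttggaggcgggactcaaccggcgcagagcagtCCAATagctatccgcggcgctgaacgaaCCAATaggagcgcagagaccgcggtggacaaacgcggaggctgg
Cdc20: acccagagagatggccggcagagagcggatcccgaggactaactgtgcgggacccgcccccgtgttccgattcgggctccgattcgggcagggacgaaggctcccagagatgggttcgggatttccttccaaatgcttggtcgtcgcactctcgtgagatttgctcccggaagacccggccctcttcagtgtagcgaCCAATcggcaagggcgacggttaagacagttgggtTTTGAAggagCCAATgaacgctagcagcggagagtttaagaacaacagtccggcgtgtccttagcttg
Top2a: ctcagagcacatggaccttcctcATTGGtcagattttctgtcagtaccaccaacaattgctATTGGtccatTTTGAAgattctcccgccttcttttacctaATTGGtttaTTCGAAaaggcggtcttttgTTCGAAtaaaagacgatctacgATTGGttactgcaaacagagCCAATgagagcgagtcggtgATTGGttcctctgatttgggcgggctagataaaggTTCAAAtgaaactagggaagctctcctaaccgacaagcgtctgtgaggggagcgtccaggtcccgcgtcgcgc
Mcm6: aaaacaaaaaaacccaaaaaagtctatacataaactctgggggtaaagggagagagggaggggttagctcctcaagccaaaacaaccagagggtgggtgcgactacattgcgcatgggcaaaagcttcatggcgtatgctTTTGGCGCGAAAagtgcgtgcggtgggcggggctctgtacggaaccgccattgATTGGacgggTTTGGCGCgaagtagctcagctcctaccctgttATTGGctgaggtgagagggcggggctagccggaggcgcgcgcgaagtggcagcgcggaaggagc
Ube2c: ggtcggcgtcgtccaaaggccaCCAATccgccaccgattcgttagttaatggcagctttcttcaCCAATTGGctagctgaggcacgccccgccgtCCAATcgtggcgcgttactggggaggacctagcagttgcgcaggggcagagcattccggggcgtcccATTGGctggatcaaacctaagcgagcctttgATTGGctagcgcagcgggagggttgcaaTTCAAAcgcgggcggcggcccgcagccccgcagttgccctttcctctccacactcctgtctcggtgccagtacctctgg
Cdt1: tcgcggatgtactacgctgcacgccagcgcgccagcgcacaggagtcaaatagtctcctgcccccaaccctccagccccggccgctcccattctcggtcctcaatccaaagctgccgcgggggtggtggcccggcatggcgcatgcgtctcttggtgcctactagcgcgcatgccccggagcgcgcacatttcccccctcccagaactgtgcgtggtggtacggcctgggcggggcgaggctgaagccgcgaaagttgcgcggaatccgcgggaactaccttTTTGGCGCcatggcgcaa
Mcm5 and Mcm6 each hold overlapping E2F matches on opposite strands, followed by CCAAT boxes, and Mcm6 has a further E2F match between its CCAAT boxes. In Cdc20 the CHR lies between 18 and 13 bases before the start site, with a CCAAT box on either side. Top2a holds 6 CCAAT boxes and 4 CHR matches, and Ube2c holds 6 CCAAT boxes and 1 CHR. In Cdt1 the single E2F match lies after the start site.

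The libraries differed in depth and in overall level. Steps in the low FPKM values gave estimated depths of 14400000 fragments in FLAG, 14200000 fragments in FLAG-CACUL1, 23900000 fragments in sh-Luc and 14900000 fragments in sh-CACUL1. The median FPKM of all rows was 6.71, 7.28, 8.27 and 5.66, respectively, so that the general level was lower in sh-CACUL1 than in sh-Luc. Cacul1 itself had 9.61 FPKM in FLAG, 11.8 FPKM in FLAG-CACUL1, 10.2 FPKM in sh-Luc and 5.39 FPKM in sh-CACUL1. The species of the FLAG-CACUL1 insert is not given in the sources used here, so whether its reads are counted in this mouse row is unknown. All 9 adipocyte markers listed were present, and their summed level was 8438 FPKM in FLAG, 883 FPKM in FLAG-CACUL1, 1688 FPKM in sh-Luc and 17626 FPKM in sh-CACUL1. Of markers of other cell types, Ptprc and Adgre1 (macrophages), Cdh5, Kdr and Tek (endothelium) and Epcam, Krt18 and Cdh1 (epithelium) had no row, whereas others were present and differed between the lines. Among macrophage markers, Cd14 had 15.0, 42.2, 3.02 and 3.50 FPKM in the same order of lines as Cacul1, Cd68 had 16.2, 1.44, 0.962 and 1.18 FPKM, and Csf1r was below 1 FPKM in every line. The epithelial marker Krt8 had 0.813, 0.206, 2.64 and 0.117 FPKM, and the endothelial marker Pecam1 was below 1 FPKM in every line. The part of these markers in the levels of the 40 genes was not tested.

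The sh-Luc line stood apart from the other 3 lines. It had the highest value of the 4 samples for 36 of the 40 genes (90%), against 37.0% of all genes. The median over the 40 genes was 11.2 FPKM in sh-Luc, 4.84 FPKM in sh-CACUL1, 4.17 FPKM in FLAG and 2.53 FPKM in FLAG-CACUL1. In sh-Luc 13 of the 40 genes (32.5%) were at least 2-fold above each of the other 3 samples on the FPKM + 1 scale, as were 1.69% of all genes. This number was 4 (10.0%, against 0.908%) after median-of-ratios scaling and 3 (7.5%, against 1.05%) after quantile normalization. FLAG-CACUL1 had the lowest value for 25 of the 40 genes (62.5%), against 16.7% of all genes, and sh-CACUL1 for 9 (22.5%), against 41.6%. FLAG had the highest value for the other 4 genes (22.3% of all genes were highest there), and no member was highest in FLAG-CACUL1 (21.9%) or in sh-CACUL1 (18.8%). With 1 sample per line none of these differences could be set against the spread between cultures, and no test was made. In bulk RNA, fewer dividing cells and less of these transcripts per cell cannot be told apart.

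**Figure D2:**
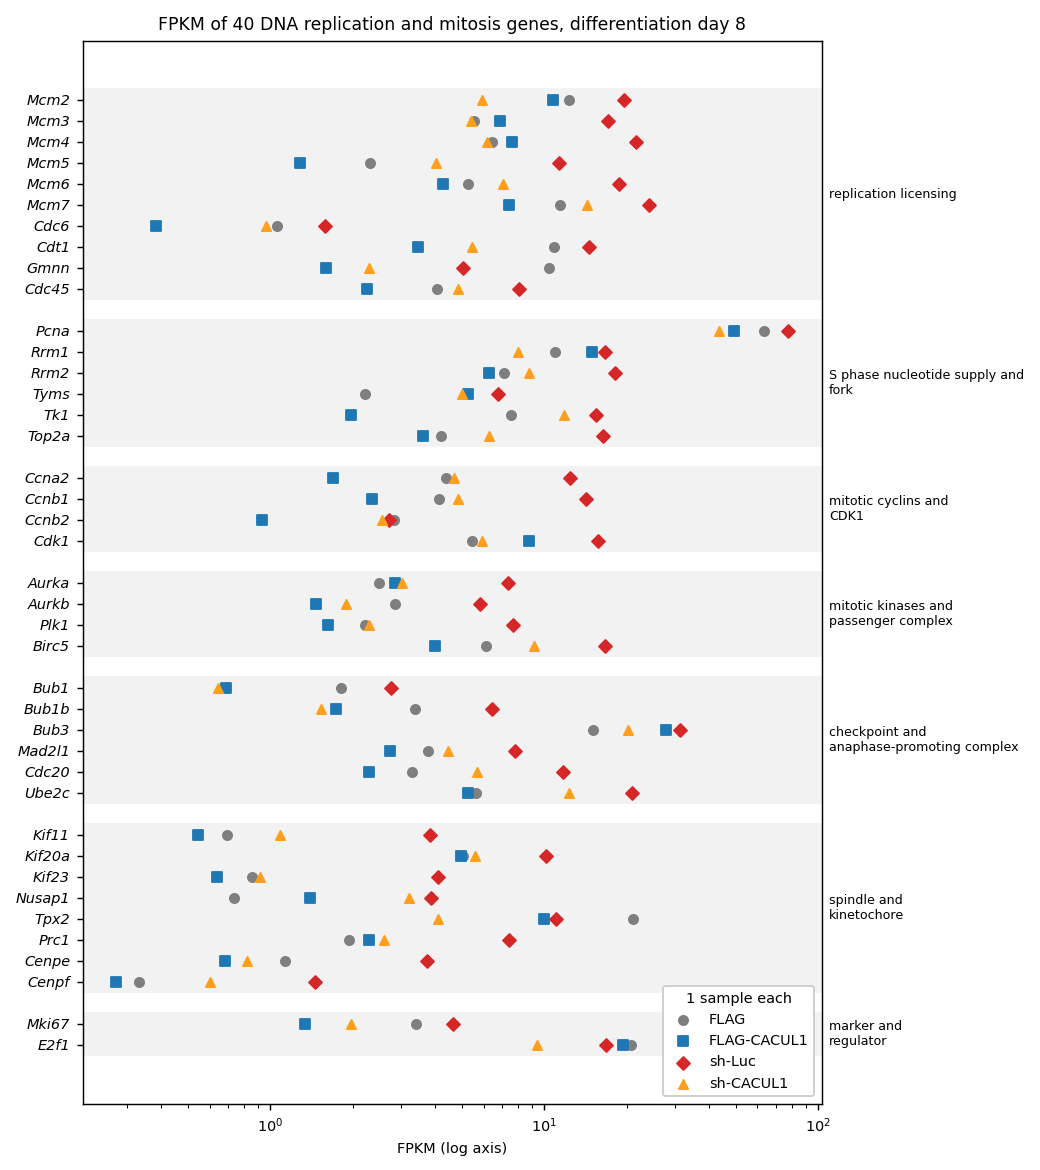
FPKM (log axis) of each of the 40 genes in the 4 lines, 1 sample each, grouped by role. The sh-Luc diamonds are the rightmost points in 36 of the 40 rows, and in Gmnn, Ccnb2, Tpx2 and E2f1 the FLAG circle is.

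Every one of the 40 genes was lower in sh-CACUL1 than in sh-Luc, against 68.6% of all genes. The median log2 fold change on the FPKM + 1 scale, used throughout, was -1.02, with a range from -1.66 for Mcm4 to -0.06 for Ccnb2, and the median over all genes was -0.30. At 2-fold or more 20 genes were lower, against 16.4% of all genes, and 0 were higher, against 4.95% of all genes. In FLAG-CACUL1 compared with FLAG, 31 genes were lower (41.3% of all genes were) and 9 higher (58.7% of all genes were), with a median of -0.32 against 0.09 over all genes. Only Gmnn, Tk1, Cdt1 and Tpx2 were lower by 2-fold or more on this scale (10.0%, against 7.22% of all genes), and 0 were higher (against 7.52%). Without the added 1, 9 genes were lower (12.1% of all genes were) and 1 was higher (16.8% of all genes were). The controls differed from each other by more than the FLAG pair did, since 36 genes were higher (62.5% of all genes were) and 4 lower (37.5%) in sh-Luc than in FLAG, with a median of 1.09 against 0.18 over all genes. At 2-fold or more 22 were higher, against 12.4% of all genes, and 0 were lower, against 8.59%. The sh-Luc sample enters this comparison and that of sh-CACUL1, so they are not independent of each other.

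Set beside FLAG instead of sh-Luc, sh-CACUL1 cells were lower in 16 genes and higher in 24, with a median of 0.11. Over all genes the median of this pair was -0.06, and the share of all genes lower at any size was not counted. At 2-fold or more 3 genes were lower (15.4% of all genes were) and 1 was higher (7.46% of all genes were). The median of the 40 genes in sh-CACUL1 was therefore below 0 against the luciferase control and not against the empty vector control. Set beside sh-Luc, FLAG-CACUL1 cells were lower by 2-fold or more in 28 genes (4.87% of all genes were). The median was -1.37, against -0.10 over all genes. After median-of-ratios scaling the sh-CACUL1 median against sh-Luc was -0.62 with 7 genes lower by 2-fold or more, when the median of all genes was 0.01 and 7.43% were lower by 2-fold. The sh-Luc value was the highest of the 4 for 32 of the 40 genes after this scaling (21.4% of all genes) and for 33 after quantile normalization (24.9%).

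**Figure D3:**
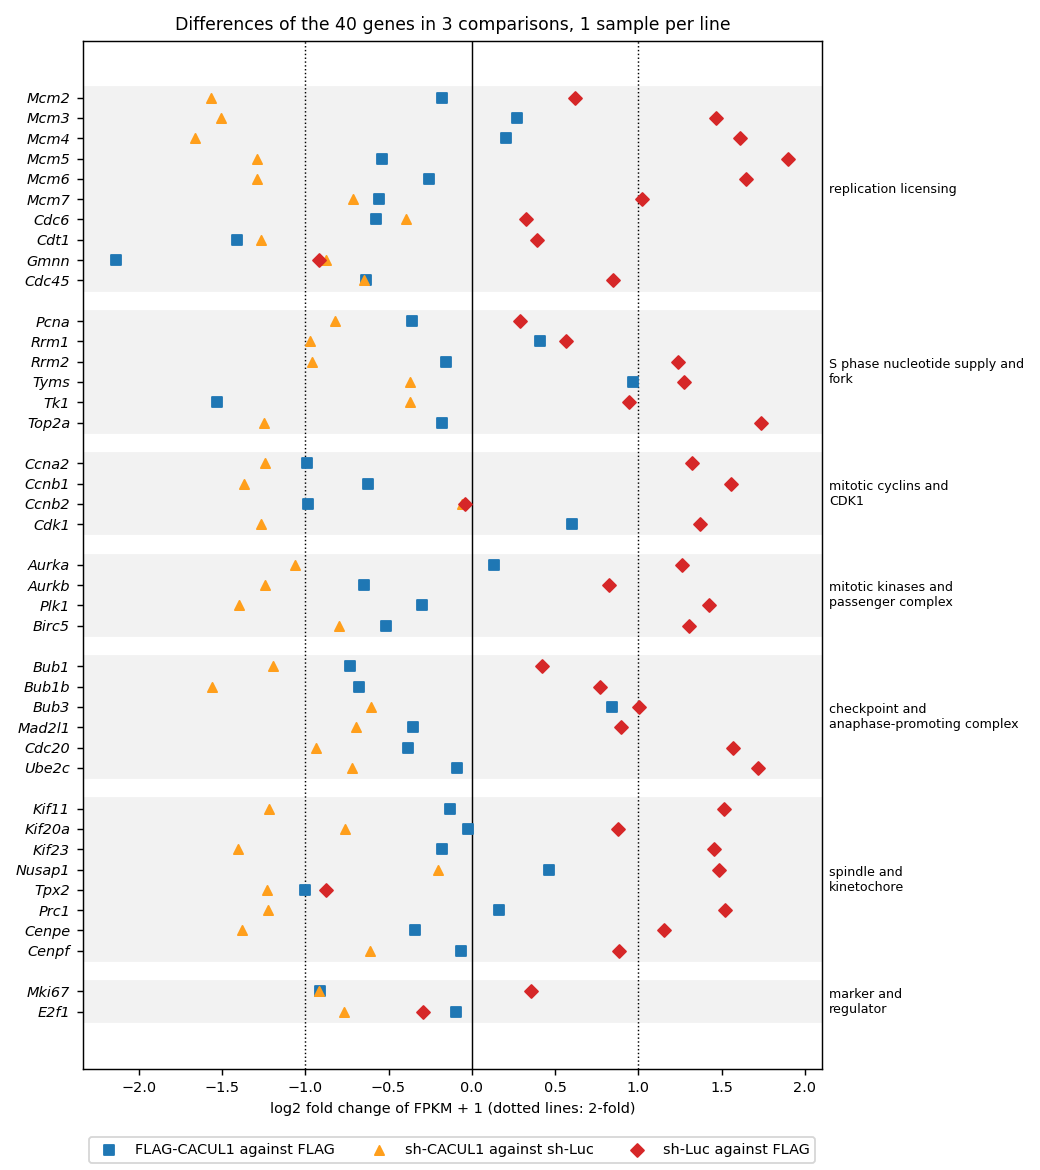
Log2 fold change of FPKM + 1 for each of the 40 genes in 3 comparisons, FLAG-CACUL1 against FLAG (squares), sh-CACUL1 against sh-Luc (triangles) and sh-Luc against FLAG (diamonds), with dotted lines at 2-fold and 1 sample per line. All triangles lie below 0, 36 of the diamonds lie above 0, and 36 of the squares lie between the dotted lines.

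Replication licensing loads the MCM2-7 helicase onto origins before S phase. The 6 helicase subunits had similar patterns. Mcm2 had 12.3 FPKM in FLAG, 10.8 FPKM in FLAG-CACUL1, 19.5 FPKM in sh-Luc and 5.90 FPKM in sh-CACUL1. Mcm3 had 5.56, 6.91, 17.1 and 5.39 FPKM in the same order of lines, which is kept below. Mcm4 had 6.44, 7.59, 21.7 and 6.16 FPKM. In these 3 genes sh-Luc was the high sample, and sh-CACUL1 had log2 fold changes of -1.57, -1.51 and -1.66 against it. In Mcm2 sh-CACUL1 was well below the other lines, whereas in Mcm3 and Mcm4 it was nearly level with FLAG. Mcm5 had 2.31, 1.28, 11.3 and 4.04 FPKM, the widest range of the helicase genes and the largest difference between the controls among the 40 genes (log2 fold change of 1.90). Mcm6 had 5.29, 4.27, 18.7 and 7.08 FPKM. Mcm7, which shares 37.6% of its 31-base stretches with the transcript of Gm5487, had 11.4, 7.44, 24.2 and 14.4 FPKM. In Mcm5, Mcm6 and Mcm7 the order of lines was sh-Luc, sh-CACUL1, FLAG and FLAG-CACUL1, from the highest down. Between FLAG-CACUL1 and FLAG the 6 subunits differed by log2 fold changes from -0.56 to 0.27, with Mcm3 and Mcm4 higher and the other 4 lower.

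The factors that load and fire the helicase differed more between the FLAG lines. Cdt1, which brings the helicase to origins, had 10.8, 3.45, 14.5 and 5.44 FPKM, and was lower by 2-fold or more in both CACUL1 lines (log2 fold changes of -1.41 and -1.27 against their controls). Gmnn encodes geminin, the inhibitor of CDT1, and had 10.4, 1.60, 5.03 and 2.28 FPKM. It was the gene with the largest difference between the FLAG lines (-2.13), had its highest value in FLAG instead of sh-Luc, and rested on about 22 fragments in FLAG-CACUL1. Cdc6, the partner of CDT1 in loading, was low in every line, with 1.06, 0.383, 1.58 and 0.963 FPKM. Cdc45, which joins the helicase when origins fire, had 4.05, 2.25, 8.10 and 4.82 FPKM. Cdc6 and Cdc45 were lower in both CACUL1 lines than in their controls, by less than 2-fold on the FPKM + 1 scale, whereas without the added 1 the FPKM ratio of Cdc6 between FLAG-CACUL1 and FLAG was 0.361.

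Genes of nucleotide supply and the fork were uneven. Pcna, the sliding clamp of DNA polymerase, was the most abundant of the 40 genes, with 63.3, 49.2, 77.6 and 43.5 FPKM. Its row shares 38.0% of its 31-base stretches with the transcript of Pcna-ps2. Rrm1 and Rrm2 encode the large and small subunits of ribonucleotide reductase, with 11.0, 14.9, 16.7 and 8.05 FPKM for Rrm1 and 7.10, 6.28, 18.1 and 8.83 FPKM for Rrm2. Both were just short of 2-fold lower in sh-CACUL1 than in sh-Luc on the FPKM + 1 scale (-0.97 and -0.96) and just past it without the added 1 (FPKM ratios of 0.481 and 0.488). The thymidylate genes went opposite ways between the FLAG lines. Tyms, which makes thymidylate de novo, had 2.21, 5.28, 6.78 and 5.00 FPKM and was the member with the largest positive log2 fold change in FLAG-CACUL1, at 0.97. Tk1, which salvages thymidine, had 7.57, 1.97, 15.5 and 11.8 FPKM and a log2 fold change of -1.53 there. Both were little lower in sh-CACUL1 than in sh-Luc, by -0.37 each, and slightly above 0 after quantile normalization (0.10 and 0.077). Top2a, the topoisomerase that untangles replicated DNA, had 4.20, 3.60, 16.3 and 6.31 FPKM, with sh-Luc far above the other 3 lines.

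Cyclins A and B activate CDK1 for entry into mitosis. Ccna2 had 4.36, 1.70, 12.4 and 4.67 FPKM. Ccnb1 had 4.14, 2.34, 14.2 and 4.86 FPKM, and 46.9% of its 31-base stretches are shared with other genes, among them Ccnb1-ps. In both cyclins FLAG and sh-CACUL1 were close, sh-Luc was well above them and FLAG-CACUL1 was the lowest. Ccnb2 did not follow, with 2.82, 0.933, 2.70 and 2.55 FPKM, so that FLAG, sh-Luc and sh-CACUL1 lay together and only FLAG-CACUL1 was low. The FLAG-CACUL1 log2 fold changes of Ccna2 and Ccnb2 were just short of 2-fold on the FPKM + 1 scale, at -0.99 and -0.98, and past it without the added 1 (FPKM ratios of 0.389 and 0.331). Cdk1 went the other way between the FLAG lines, with 5.44, 8.79, 15.7 and 5.94 FPKM, and a log2 fold change of 0.60.

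The mitotic kinases were low in every line other than sh-Luc. Aurka, a kinase of centrosomes and spindle poles, had 2.50, 2.84, 7.39 and 3.02 FPKM. Plk1, a kinase with roles from entry into mitosis to cytokinesis, had 2.22, 1.62, 7.66 and 2.28 FPKM. In both genes the 3 other lines lay within a narrow band and sh-Luc was well above it. Aurkb, the kinase of the chromosomal passenger complex, had 2.86, 1.47, 5.83 and 1.89 FPKM, and its partner Birc5 (survivin) had 6.15, 3.99, 16.7 and 9.17 FPKM. Relative to sh-Luc, sh-CACUL1 had log2 fold changes of -1.06 for Aurka, -1.40 for Plk1, -1.24 for Aurkb and -0.80 for Birc5.

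The spindle checkpoint delays anaphase until chromosomes are attached, by holding CDC20, the activator of the anaphase-promoting complex. Bub1 had 1.81, 0.690, 2.76 and 0.642 FPKM, and Bub1b, which encodes the checkpoint protein BUBR1, had 3.38, 1.74, 6.46 and 1.53 FPKM. Both kinetochore genes were lowest in the CACUL1 lines, and Bub1b had a log2 fold change of -1.56 in sh-CACUL1. Bub3, their binding partner, was much more abundant, with 15.1, 27.8, 31.3 and 20.3 FPKM, and was higher in FLAG-CACUL1 than in FLAG (0.84). Mad2l1, which binds CDC20, had 3.76, 2.72, 7.85 and 4.46 FPKM. Cdc20 had 3.30, 2.29, 11.7 and 5.67 FPKM. Ube2c, the ubiquitin-conjugating enzyme of the anaphase-promoting complex, had 5.65, 5.26, 20.9 and 12.3 FPKM. For these last 3 genes sh-CACUL1 lay between sh-Luc and the FLAG lines, and its log2 fold change against sh-Luc was -0.70, -0.93 and -0.72.

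Spindle and kinetochore genes were the least abundant group, with medians of 0.992 FPKM in FLAG, 1.04 FPKM in FLAG-CACUL1, 3.97 FPKM in sh-Luc and 1.84 FPKM in sh-CACUL1. Kif11, the motor that separates spindle poles, had 0.696, 0.546, 3.84 and 1.08 FPKM. Kif23, a motor of the central spindle, had 0.854, 0.637, 4.09 and 0.919 FPKM. These motors had the pattern of the mitotic kinases at a lower level, and the ratio of FPKM without the added 1 was 5.52 for Kif11 and 4.79 for Kif23 between sh-Luc and FLAG. Kif20a, a motor of cytokinesis, had 5.07, 4.96, 10.2 and 5.57 FPKM. Prc1, which bundles the microtubules of the central spindle, had 1.93, 2.29, 7.41 and 2.60 FPKM. Here FLAG, FLAG-CACUL1 and sh-CACUL1 were nearly level and sh-Luc was high. Cenpe, a kinetochore motor, had 1.13, 0.681, 3.74 and 0.825 FPKM, and Cenpf, a large kinetochore protein, had 0.331, 0.274, 1.46 and 0.605 FPKM. Nusap1, which binds spindle microtubules, was high in both hairpin lines, with 0.736, 1.39, 3.86 and 3.22 FPKM, and differed little between them (-0.21). Tpx2, the activator of Aurora A, was unlike the rest of the group. It had 21.0, 9.99, 11.0 and 4.11 FPKM, with FLAG the highest line, and it was lower by 2-fold or more in both CACUL1 lines (FPKM ratio of 0.476 for FLAG-CACUL1 and 0.373 for sh-CACUL1).

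Mki67, the gene of the proliferation antigen Ki-67, had 3.40, 1.34, 4.62 and 1.97 FPKM. Both CACUL1 lines were below both controls, and the log2 fold change against the matching control was -0.91 for FLAG-CACUL1 and -0.92 for sh-CACUL1. E2f1, a driver of S phase genes, had 20.8, 19.4, 16.8 and 9.45 FPKM. Its level was highest in FLAG, with log2 fold changes of -0.29 in sh-Luc against FLAG and -0.77 in sh-CACUL1 against sh-Luc. The part of E2f1 in the levels of the other genes was not tested.

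Counting error was small next to many of these differences. From the estimated depths, the 40 genes held between 20 and 2818 fragments per sample, with a median of 235. The counting error alone of a log2 ratio of FPKM had a standard error from 0.05 to 0.29 between sh-CACUL1 and sh-Luc and from 0.06 to 0.38 between the FLAG lines. It does not cover the spread between cultures. In 32 of the 40 genes FPKM was at least 1 in all 4 samples, and all 40 had at least 1 FPKM in some sample.

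Other genes of the pathway were counted over 3 lists. Of 41 other replication genes, 36 (87.8%) were lower in sh-CACUL1 than in sh-Luc, against 68.6% of all genes, with a median of -0.72. By 2-fold or more 9 (22%) were lower, near the 16.4% of all genes, and 0 were higher, against 4.95% of all genes. Of 42 other mitosis genes, 40 (95.2%) were lower, 14 of them by 2-fold or more (33.3%), and 0 were higher by 2-fold, with a median of -0.87. The sh-Luc sample was the highest of the 4 for 31 and 38 genes of these lists (75.6% and 90.5%, against 37.0% of all genes). After median-of-ratios scaling it was the highest for 23 and 32 (56.1% and 76.2%, against 21.4%). Racgap1 and Anln, which act in cytokinesis, had the most negative log2 fold changes of the mitosis list in sh-CACUL1, with 5.51 FPKM against 21.8 FPKM (-1.81) and 1.84 FPKM against 8.17 FPKM (-1.69). Chaf1b, a subunit of the chromatin assembly factor, had 1.68 FPKM against 7.39 FPKM (-1.65), and Dnmt1, the maintenance DNA methyltransferase, had 4.18 FPKM against 14.4 FPKM (-1.58). At the other end Cdc25b, a phosphatase that activates CDKs, had 12.2 FPKM against 6.32 FPKM (0.85), and Rpa3, a subunit of the single-strand binding protein, had 23.2 FPKM against 19.6 FPKM (0.23).

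Between the FLAG lines the same lists were nearer to 0. Of the other replication genes 25 (61.0%, against 41.3% of all genes) were lower and 16 higher in FLAG-CACUL1 (median -0.17), and only Rfc4, a clamp loader subunit, was lower by 2-fold (2.44% of the list, against 7.22% of all genes), with 3.94 FPKM against 10.9 FPKM (-1.27). Of the other mitosis genes 36 (85.7%) were lower and 6 higher (median -0.25), and 3 were lower by 2-fold, which at 7.14% is the share of all genes (7.22%). Ccnf (cyclin F) had 1.21 FPKM against 5.97 FPKM (-1.66), and Cdca3, which is needed for entry into mitosis, had 1.79 FPKM against 5.87 FPKM (-1.30). The third, Ncapg of condensin, is named after its values were seen and had 1.16 FPKM against 3.36 FPKM (-1.01). Gins3, of the replicative helicase complex, was at the upper end, with 2.72 FPKM against 0.917 FPKM (0.96).

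The regulators of these promoters differed among themselves. Of 18 E2F, pocket protein, DREAM and MuvB genes, 13 (72.2%) were lower in sh-CACUL1 than in sh-Luc, near the 68.6% of all genes, and 5 (27.8%, against 16.4%) were lower by 2-fold or more, with a median of -0.62. E2f8, an E2F repressor that is itself induced in S phase, had 0.452 FPKM against 2.39 FPKM (-1.22), and E2f4, the E2F of DREAM, had 12.5 FPKM against 28.6 FPKM (-1.14). Foxm1, the activator of mitotic genes, was at 1.20 FPKM in FLAG but at 6.30 FPKM in sh-Luc (1.73). Between the FLAG lines 11 of the 18 were lower in FLAG-CACUL1 (61.1%, against 41.3% of all genes) and 7 higher, with a median of -0.16. Mybl2, which encodes B-MYB, was at 0.455 FPKM in FLAG-CACUL1 against 2.38 FPKM in FLAG (-1.22), and the pocket protein gene Rb1 was at 3.35 FPKM against 9.20 FPKM (-1.23). These 2 genes were the only ones lower by 2-fold or more (11.1%, against 7.22%). At the other end were Lin52, with 5.03 FPKM against 2.52 FPKM (0.78), and Tfdp1, with 24.0 FPKM against 14.8 FPKM (0.67). Rb1 was not lower in sh-CACUL1 than in sh-Luc (0.25), and neither was the MuvB gene Lin9 (0.26).

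**Figure D4:**
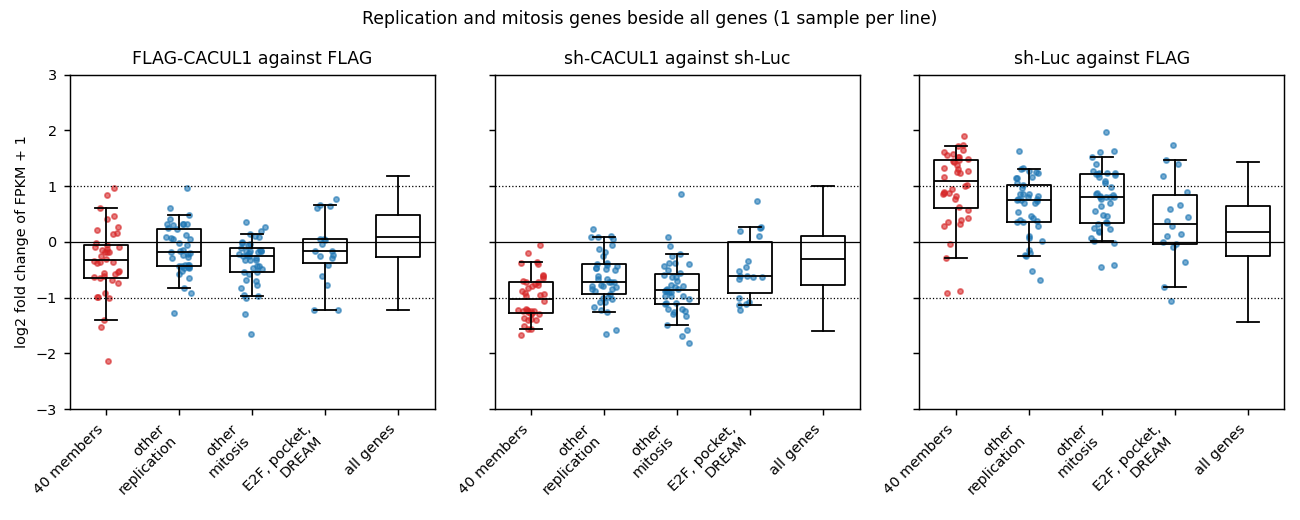
Log2 fold change of FPKM + 1 in 3 comparisons for the 40 members (red points), 3 lists of other pathway genes (blue points) and all genes, where boxes give quartiles with the median line, whiskers the 5th and 95th percentiles, and points single genes. The member medians sit below that of all genes in both CACUL1 comparisons (-0.32 and -1.02 against 0.09 and -0.30) and above it in sh-Luc against FLAG (1.09 against 0.18).

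The adipocyte markers did not follow the order of the 40 genes over the lines. FLAG-CACUL1 had the lowest summed adipocyte markers (883 FPKM) and the lowest median of the 40 genes (2.53 FPKM). The sh-Luc line had the second lowest sum (1688 FPKM) and the highest median (11.2 FPKM). Fabp4 gave most of this sum in every line but FLAG-CACUL1, with 4991, 320, 1020 and 12543 FPKM in the order used above. Lpl, Cebpa and Retn were higher in FLAG-CACUL1 than in sh-Luc, with 512 against 357, 1.58 against 0.421 and 1.34 against 0.192 FPKM. The other listed markers were lower in FLAG-CACUL1. Lpl, Plin1, Pparg and Cebpa were higher in FLAG than in sh-CACUL1, and the other listed markers were lower. FLAG and sh-CACUL1, the lines with high markers, had medians of 4.17 and 4.84 FPKM. Of 9 preadipocyte and fibroblast markers with a row, 7 were lower by 2-fold or more in sh-CACUL1 than in sh-Luc. This is 77.8%, against 16.4% of all genes. Dlk1 and Thy1 were higher by 2-fold or more (22.2%, against 4.95%), and both were below 1 FPKM in sh-Luc only. In the order of lines used above, Dlk1 had 97.2, 39.4, 0.220 and 21.2 FPKM. Thy1 had 42.4, 144, 0.663 and 34.3 FPKM. In FLAG-CACUL1 compared with FLAG, 5 of the 9 were higher (55.6%, against 7.52% of all genes) and 1 was lower (11.1%, against 7.22%) by 2-fold or more. The part of cell composition in the levels of replication and mitosis genes was not tested.

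**Figure D5:**
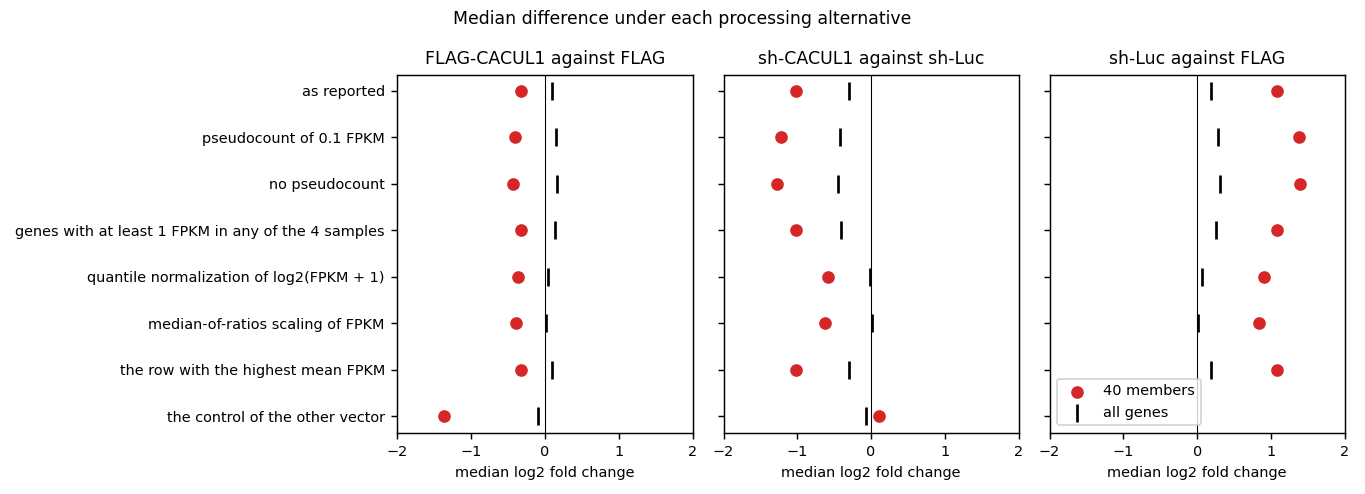
Median log2 fold change of the 40 genes (red points) and of all genes (black bars) in 3 comparisons under each way of processing. Only the exchange of control moves the red point across 0, in the comparison of sh-CACUL1 (0.11 against FLAG).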

How the data were processed

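RNA-seq of 4 stable 3T3-L1 lines with 1 sample each was analysed. FLAG is the control of FLAG-CACUL1, and sh-Luc that of sh-CACUL1. The authors deposited FPKM for 13110 rows of RefSeq transcripts per sample, after a company prepared and sequenced the libraries. The submitters' processing notes name mm10, which is GRCm38. The aligner, the FPKM program, strand use and any filter are not given in the sources used here. Accessions were matched to symbols in the RefSeq gene table (12998 rows) and then GENCODE M21 (65 rows), 47 rows without a symbol kept their accession, and 12 rows were summed under shared symbols, leaving 13104 genes. No member was affected by this summing.

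A difference is the log2 ratio of FPKM + 1, which understates low genes, against the line with the same vector, and 2-fold was the cut-off. With 1 sample per line no test was made. Depth was estimated from steps in FPKM times length for 4241 rows of transcripts of at least 3000 bases. The members and lists were chosen with earlier results of these data known. Named were all 40 members and, per list and comparison, the 2 highest and 2 lowest other pathway genes with at least 1 FPKM in a sample, of which the text gives a selection. Alternatives were pseudocounts of 0.1 and 0, a minimum of 1 FPKM in any sample, quantile and median-of-ratios scaling, the highest row in place of the sum, the other control and a cut-off of 3-fold. Scripts were tested on simulated data. Computations used Python 3.11.15 with numpy 2.4.6, pandas 2.3.3 and matplotlib 3.10.9.

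Of the 40 members, 9 share at least 10% of their 31-base stretches with transcripts of other genes (Mcm7, Pcna, Rrm2, Tyms, Ccnb1, Plk1, Mad2l1, Cdc20 and Ube2c), and 15 overlap a gene on the opposite strand, so their values are less certain.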

Additional observations from a re-analysis of the deposited data

How the results depend on the processing

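No paired analysis was possible because each line has 1 sample, and no replicate could be left out. For FLAG-CACUL1 against FLAG, the number of the 40 genes at 2-fold or more in either direction was 4 as reported (14.7% of all genes), 10 with a pseudocount of 0.1 (24.2%), 10 without a pseudocount (28.9%), 7 after quantile normalization (14.1%), 7 after median-of-ratios scaling (14.7%), 28 with sh-Luc as the control (9.91%) and 1 at a cut-off of 3-fold (5.07%). As a share of the 40 genes, 10 is 25.0% and 7 is 17.5%, near the share of all genes in either direction, and the 7 were all lower (7.79% and 8.94% of all genes were lower after the 2 scalings). The median log2 fold change was -0.32 as reported, -0.44 without a pseudocount and -1.37 with sh-Luc as the control. For sh-CACUL1 against sh-Luc the number was 20 as reported (21.3% of all genes), 26 with a pseudocount of 0.1 (31.9%) and without one (36.7%), 6 after quantile normalization (17.3%), 7 after median-of-ratios scaling (16.9%), 4 with FLAG as the control (22.9%) and 1 at 3-fold (7.15%). After either scaling the share of the 40 genes (15.0% and 17.5%) was near that of all genes in either direction, and at 3-fold (2.50%) it was below. The 6 and 7 genes were all lower, where 8.28% and 7.43% of all genes were lower after the 2 scalings. The median was -1.02 as reported, -1.23 with a pseudocount of 0.1, -1.28 without one, -0.58 after quantile normalization, -0.62 after median-of-ratios scaling and 0.11 with FLAG as the control. For sh-Luc against FLAG the number was 22 as reported (21.0% of all genes) and 5 at 3-fold (7.61%), and the median was 1.09 as reported, 1.38 with a pseudocount of 0.1, 1.39 without one, 0.90 after quantile normalization and 0.84 after median-of-ratios scaling.

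With FLAG in place of sh-Luc as the control of sh-CACUL1, 11 of the 20 genes that were lower by 2-fold or more had log2 fold changes above 0. These were Mcm5 (0.61), Mcm6 (0.36), Top2a (0.49), Ccna2 (0.081), Ccnb1 (0.19), Cdk1 (0.11), Aurka (0.20), Plk1 (0.029), Kif11 (0.30), Kif23 (0.050) and Prc1 (0.30). The smallest of these are nearly level values, as for Plk1, with about 75 fragments in sh-CACUL1 and 70 in FLAG. Because the 20 genes were taken for their difference from sh-Luc, a shift upward with another control is partly built in. The share among all genes taken in the same way was not counted. Of all genes, 16.4% were lower and 4.95% higher by 2-fold or more in sh-CACUL1 than in sh-Luc as reported, 8.28% and 9.03% after quantile normalization, and 7.43% and 9.43% after median-of-ratios scaling. Both scalings set the median of all genes near 0, from -0.30 as reported, and left 36 of the 40 genes lower. The share of all genes lower at any size after scaling was not counted. After quantile normalization the 4 genes above 0 were Ccnb2 (0.33), Nusap1 (0.24), Tyms (0.10) and Tk1 (0.077). The minimum of 1 FPKM in any sample and the choice of the highest row changed none of the 3 counts. The spread between cultures is unknown, and the origin of a line and its CACUL1 level cannot be told apart.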
